A study of Homo sapiens and Mus musculus with 12 samples.

Results

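MDA-MB-231 cells treated with ponatinib were compared with the same cells treated with DMSO across all expressed genes. The members were the 6 of the 12 RNA-seq libraries of the series whose labels name this cell line: 3 libraries from cells given 1 μM ponatinib for 24 h and 3 from cells given DMSO for 24 h. MDA-MB-231 is an established human line of triple-negative breast cancer, labelled here as wild type, epithelial and from breast, so both groups carry the same genotype. Ponatinib is a multi-targeted tyrosine kinase inhibitor used against leukemia with BCR-ABL, and DMSO is its solvent. RNA came from a TRIzol extraction and was made into libraries with a NEBNext Ultra kit, and the values are the authors' counts of reads per gene. Nothing in the labels or methods says whether the 3 libraries of a group came from separate cultures, so the p-values measure only the spread between these libraries.

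Receptor tyrosine kinases pass growth signals to the RAS-MAPK and PI3K-AKT pathways, which drive cyclin D, E2F factors and ribosome production. Where AKT signaling is low, FOXO factors move into the nucleus and switch on genes of catabolism and of cell death. Sterol-regulated SREBP factors, TFEB in the lysosomal system, ATF4 in the amino acid response, and interferon-activated STAT and IRF factors each have known target genes of their own. MDA-MB-231 cells are known for mesenchymal features, low E-cadherin, high AP-1 activity and the secretion of matrix proteases.

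The libraries held 15012884 to 17301760 counts. A first principal component with 78.4% of the variance separated the treatments, and a second with 8.88% set replicate 1 of both groups apart from the other libraries. Without both of these libraries, 4293 genes were higher and 4362 lower, and 280 of the 282 genes of the naming rule kept their call. Genes with at least 1 count numbered 20929 to 21031 with DMSO and 22049 to 22518 with ponatinib. All 12 markers of MDA-MB-231 were detected, and their summed level was 5037 to 5351 CPM (counts per 1000000 counts of a library, here over the total, and elsewhere over the total scaled by TMM, edgeR's trimmed mean of M values) with DMSO and 3454 to 3679 CPM with ponatinib. Of 12 luminal markers 3 had at most 3 counts in every library, the estrogen receptor gene *ESR1* among them, and the sums were 888 to 999.8 CPM and 994 to 1091 CPM. Of 16 markers of blood and vessel cells 10 had at most 3 counts in every library, with sums of 6.59 to 7.16 CPM and 10.2 to 13.5 CPM. Of the 16, 6 had 0 counts in every library, *PTPRC* among them. *CD8A* had 175 counts over the DMSO libraries and 355 over the ponatinib libraries, *CSF1R* 34 and 89, and *CDH5* 8 and 2. The part of these markers in the results was not tested. *CDH1*, the gene of E-cadherin, had 0 counts with DMSO and 1 count with ponatinib and was not tested. In bulk RNA, fewer cells of a kind and less RNA per cell cannot be told apart, and CPM values are shares of reads, so a change in total RNA per cell does not appear in them.

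Of 14610 genes tested, 3975 (27.2%) were called higher and 3918 (26.8%) lower by the quasi-likelihood test of edgeR, with Benjamini-Hochberg adjusted p-values under 0.05, which is the test behind every call and adjusted p given here. Over all genes, rises beyond 2-fold were more frequent than such falls: 10.7% of the genes were higher and 5.16% were lower by more than 2-fold. Beyond 8-fold, 117 genes were higher and 33 were lower. In 60.4% of the genes the groups did not overlap. The direction moved with the level of the gene. In the quartile of genes with the lowest mean CPM 30.3% rose and 8.95% fell, while in the quartile with the highest 21.7% rose and 41.4% fell. Beyond 2-fold, 23.5% rose and 5.91% fell in the lowest quartile. In the highest quartile the order was reversed, with 3.01% higher and 4.68% lower by more than 2-fold. Levels are given below as single libraries or as mean ± SD over the 3 libraries of DMSO and then of ponatinib, and the value after ± beside a log2 fold change (ponatinib minus DMSO) is its standard error. A bare value in parentheses after a gene is its log2 fold change. The filter on low counts kept a gene that was high enough in either group alone. Genes with few reads in the other group, such as *HAS2*, *TJP3* and *PDGFRB*, were thus tested because they were high in a group. Their adjusted p-values are given as description.

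**Figure D1:**
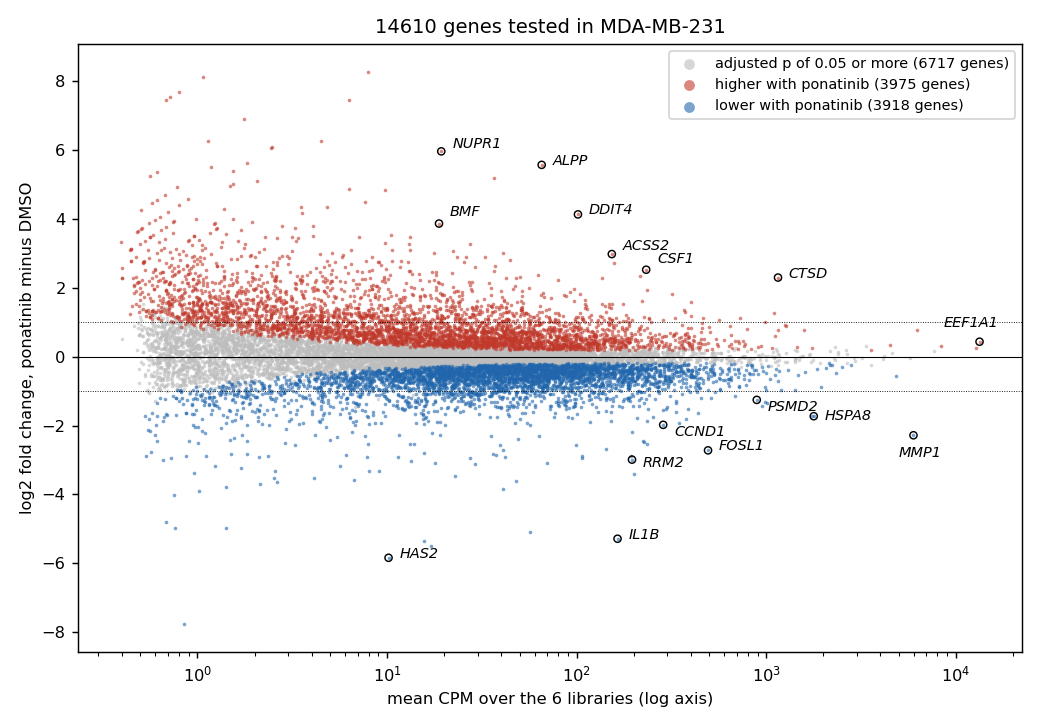
Log2 fold change (ponatinib minus DMSO) against the mean CPM of the 6 libraries on a log axis, 1 point per gene, for 14610 genes: red points rose, blue points fell and grey points did not pass the test. Dotted lines mark a change of 2-fold; low genes lie mostly above zero, and several of the most abundant genes that changed, such as *MMP1* and *HSPA8*, lie below.

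To describe these genes by function, 45 lists of genes were used, with the shares over all genes tested as background. Members lower with ponatinib made up 100% of the tested genes of G1/S and DNA replication, 91.8% of ribosome biogenesis, 83.3% of the proteasome, 80.9% of G2/M and mitosis, 75% of heat shock proteins and 72.5% of homologous recombination and Fanconi anemia repair. Members higher made up 71.4% of FOXO factors and targets, 69.7% of the integrated stress response, 69.2% of cholesterol synthesis and uptake, 66.7% of cholesterol efflux, 62.5% of the interferon response, 53.2% of the lysosome and 51.1% of epithelial junctions and keratins. The nuclear genes of oxidative phosphorylation and the cytosolic ribosomal proteins had few calls in either direction, and their counts depended on the setting, as given below. The lists share some genes, such as *GDF15*, so they are not independent of each other.

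**Figure D2:**
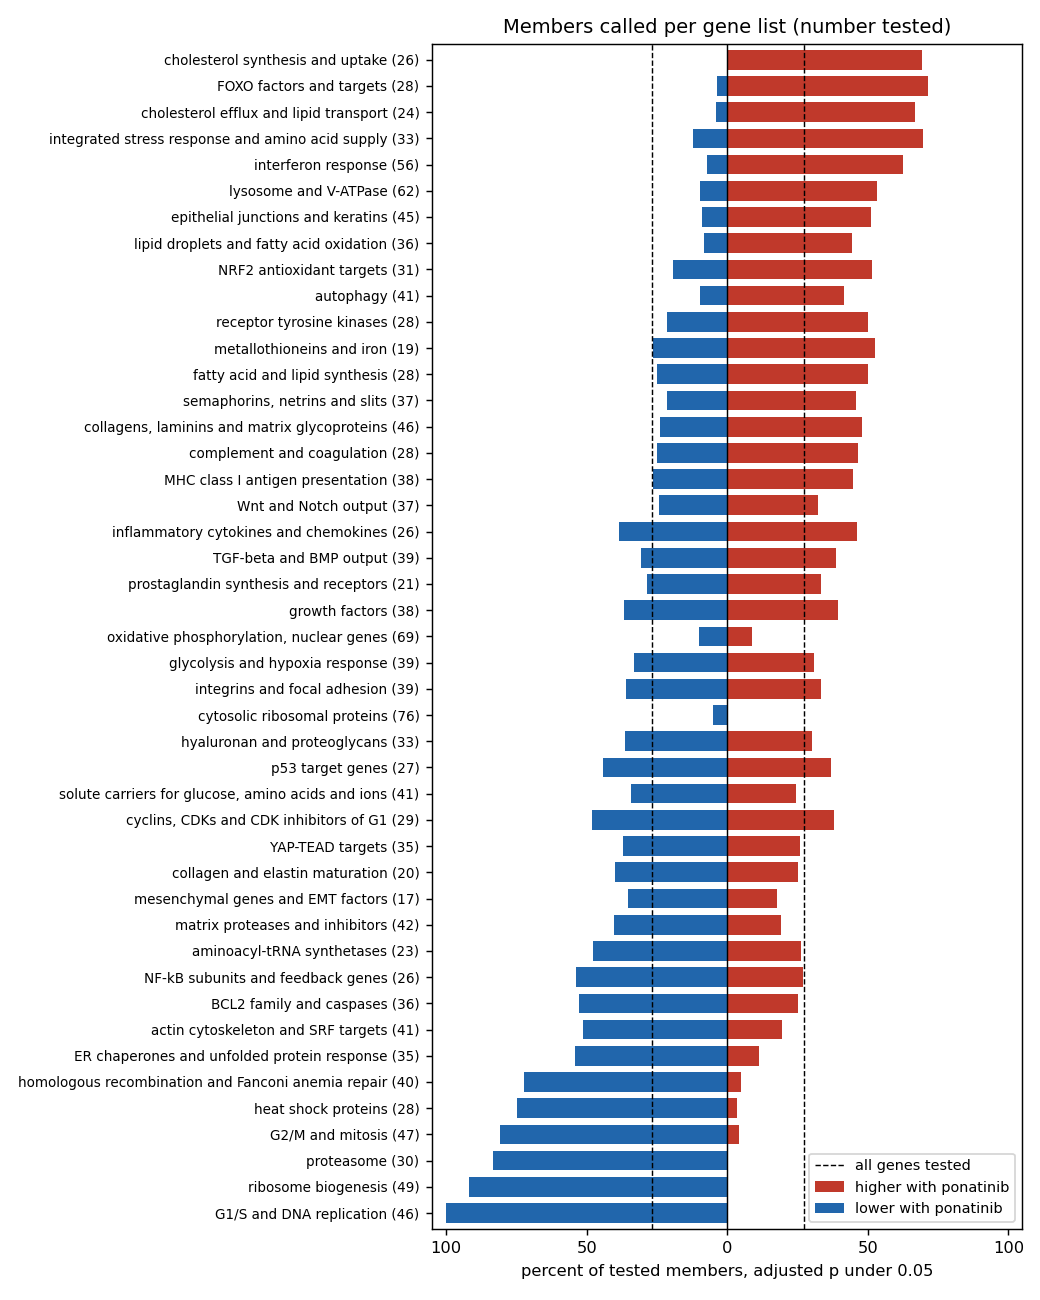
Percent of the tested members of each of 45 lists that were called lower (blue, to the left) or higher (red, to the right) with ponatinib, with the number tested in parentheses. Dashed lines give the shares over all genes tested, 26.8% lower and 27.2% higher; the lists at the bottom are nearly all blue and those at the top mostly red.

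Genes of DNA replication fell together. All 46 tested members were lower, against 26.8% of all genes, and 31 of them by more than 2-fold, against 5.16%. Their median log2 fold change was -1.14, where the median over all genes was 0.02. *RRM2*, the small subunit of ribonucleotide reductase (ENSG00000171848, chromosome 2 of GRCh38 from 10120698 to 10211725), had 323, 365 and 356 CPM with DMSO and 40.8, 45.1 and 45.4 CPM with ponatinib. The groups were far apart, with a log2 fold change of -2.99 ± 0.09 (adjusted p = 1.08e-09). *MCM10*, which helps to start replication forks, went from 32.3 ± 4.29 to 8.17 ± 1.05 CPM (log2 fold change -1.98 ± 0.14, adjusted p = 4.51e-07). *CLSPN*, encoding the checkpoint adaptor claspin, went from 24.5 ± 3.13 to 7.15 ± 1.08 CPM (log2 fold change -1.78 ± 0.14, adjusted p = 1.47e-06). The smallest fall on the list, looked up after the values were seen, was that of the DNA ligase gene *LIG1*, with a log2 fold change of -0.43.

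Promoters of replication genes are known for sites of E2F factors. In the RefSeq promoters (250 bases before to 50 after the start of the gene, GRCh38.p14), the letters TTTNGCGC on either strand stood in 15 of the 39 list members with a promoter, or 38.5%, and in 2.97% of the 10686 promoters of all tested genes. The replication list holds known E2F targets, so this share describes the list and not the treatment. Over all genes lower by more than 2-fold the share was 4.41%, and over those higher by more than 2-fold 1.7%. Windows upstream of the start are shown for 3 such genes with the E2F letters in capitals, to let a reader see the site in its context. The genes of these and all later windows were chosen after the matches and the fold changes were seen. The log2 fold changes were -1.25 for the transcription factor gene *E2F1*, -0.54 for the helicase subunit *MCM6* and -1.2 for the polymerase subunit *POLA2*.
E2F1, chr20:33686388-33686415 (minus strand): gcaaaaaggaTTTGGCGCgtaaaagtgg
MCM6, chr2:135876578-135876605 (minus strand): gggctttgcaTTTGGCGCgaaatccctt
POLA2, chr11:65261899-65261926 (plus strand): tggctcccggTTTCGCGCatgcgtgcac

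Most mitotic genes fell, by less than 2-fold. Of 47 tested members of G2/M and mitosis 38 were lower, 2 were higher and 4 were lower by more than 2-fold, with a median of -0.53. *MYBL2*, encoding the transcription factor B-MYB, had 276, 252 and 235 CPM with DMSO and 98.7, 88.6 and 88.9 CPM with ponatinib. All ponatinib libraries lay below all DMSO libraries, with a log2 fold change of -1.47 ± 0.09 (adjusted p = 1.30e-07). *SPC25*, a kinetochore protein, went from 25.3 ± 1.99 to 9.81 ± 0.514 CPM (log2 fold change -1.37 ± 0.11, adjusted p = 1.56e-06), and *MAD2L1*, of the spindle checkpoint, from 101 ± 9.02 to 48.1 ± 4.79 CPM (log2 fold change -1.08 ± 0.10, adjusted p = 3.60e-06). *MKI67*, the gene of the proliferation marker Ki-67, went from 385 ± 12.7 to 201 ± 8.61 CPM (log2 fold change -0.94 ± 0.07, adjusted p = 1.04e-06). The pair that rose did so slightly: *CDC25B*, a phosphatase that activates CDK1, with 0.30, and the kinase gene *NEK2* with 0.20 and an adjusted p of 0.0485. With the replicate block 4 members were higher and 41 lower. The *NEK2* call was lost in 9 alternatives, with an adjusted p of up to 0.239.

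The CHR, a short element of mitotic promoters with the letters TTTGAA, was found on either strand in 26 of 39 list members with a promoter (66.7%) and in 9.56% of all promoters of tested genes. It stood in 23 of the 31 lower members and in 0 of the 2 higher members. As the list holds mitotic genes, its share describes the list and not the treatment. Over all genes lower by more than 2-fold the share was 13.6%, and over those higher by more than 2-fold 8.32%. A match is a description of the letters and not of a site in use. The windows below hold the CHR letters in capitals and belong to *CDK1*, the mitotic kinase (-0.96), *KIF23*, a kinesin of cytokinesis (-0.74), and *TOP2A*, a DNA topoisomerase (-0.49), with log2 fold changes in parentheses.
CDK1, chr10:60778160-60778185 (plus strand): gtataataaaTTTGAActgtgccaat
KIF23, chr15:69414284-69414309 (plus strand): gattggcccgTTTGAAatgcgccagg
TOP2A, chr17:40418075-40418100 (minus strand): agtggtgcctTTTGAAgcctctctag

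Repair by homologous recombination, active in S and G2 phase, followed the same direction, with 29 of 40 tested genes lower, 2 higher and a median of -0.68. *XRCC2*, a recombination factor, went from 12.2 ± 0.373 to 3.63 ± 0.642 CPM (log2 fold change -1.74 ± 0.16, adjusted p = 3.51e-06). *EXO1*, an exonuclease, went from 39.5 ± 2.47 to 16.1 ± 0.996 CPM (log2 fold change -1.3 ± 0.10, adjusted p = 9.12e-07). *RAD50*, a subunit of the MRN complex, was the larger of the pair that rose, from 10.5 ± 1.45 to 17.6 ± 2.22 CPM (log2 fold change 0.74 ± 0.14, adjusted p = 0.000944). The other was the checkpoint kinase gene *CHEK2* (0.33), whose adjusted p of 0.0452 passed the threshold narrowly and missed it in 8 alternatives.

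Regulators of G1 went both ways. *CCND1*, which encodes cyclin D1 (ENSG00000110092, chromosome 11 of GRCh38 from 69641156 to 69654474), had 455, 466 and 449 CPM with DMSO and 102, 119 and 125 CPM with ponatinib. The highest ponatinib library lay far below the lowest DMSO library, with a log2 fold change of -1.98 ± 0.09 (adjusted p = 1.55e-08). *CDKN1A*, the gene of the CDK inhibitor p21 and a known p53 target, also fell, from 246 ± 4.93 to 38.5 ± 2.41 CPM (log2 fold change -2.67 ± 0.08, adjusted p = 1.08e-09). *CDKN1C*, the gene of the CDK inhibitor p57, rose from 10.5 ± 2.65 to 44 ± 7.63 CPM (log2 fold change 2.07 ± 0.18, adjusted p = 2.16e-06). *CDKN1B*, the gene of p27, rose from 32.5 ± 4.08 to 49.5 ± 4.95 CPM (log2 fold change 0.61 ± 0.11, adjusted p = 0.000752). *MXI1*, an antagonist of MYC, and *CCNG2*, a cyclin of arrested cells, rose by 1.65 and 1.61 on the log2 scale. *E2F7*, an E2F repressor, went the other way (-1.38). In all, 14 of 29 tested genes of this list were lower and 11 were higher.

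Genes that build ribosomes fell, while the calls of the ribosome's own proteins were few and changed with the setting. Of 49 tested genes of ribosome biogenesis 45 were lower, 0 were higher and 15 fell by more than 2-fold, with a median of -0.83. *DDX21*, a nucleolar RNA helicase, had 133, 169.7 and 163 CPM with DMSO and 48.4, 55.7 and 65.2 CPM with ponatinib. The highest ponatinib library was below the lowest DMSO library, with a log2 fold change of -1.46 ± 0.12 (adjusted p = 1.72e-06). *NOP16* and *NIP7*, both factors of the large subunit, had log2 fold changes of -1.45 and -1.42. Of 76 cytosolic ribosomal protein genes 4 were lower and 0 higher, with a median of -0.01. With total counts in place of TMM 14 were higher and 2 lower, and with the replicate block 19 were higher and 20 lower. Without ponatinib replicate 1, 0 were higher and 17 lower, while 7 were higher and 2 lower without DMSO replicate 1, and 5 and 2 without ponatinib replicate 3, so no direction can be given for this family. Without DMSO replicate 2, 0 were higher and 2 lower, and without ponatinib replicate 2, 1 was higher and 2 were lower. *RPL6* and *RPL27* had log2 fold changes of -0.26 and -0.26, their libraries overlapped, and the calls were lost with total counts. *RPL26* (-0.68) and *RPL17* (-1.65), the latter named after its value was seen, have many near-identical copies in the genome, and their values are uncertain for that reason.

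The protein quality machinery of the cytosol was lower. Of 30 tested proteasome genes 25 fell and 0 rose, with a median of -0.51. *PSMD2*, a subunit of the regulatory particle (ENSG00000175166, chromosome 3 of GRCh38 from 184299198 to 184309050), had 1303, 1242 and 1226 CPM with DMSO and 551, 509 and 518 CPM with ponatinib. All ponatinib libraries were lower, with a log2 fold change of -1.26 ± 0.07 (adjusted p = 1.22e-07). *PSMD12* and *PSMD11*, also of the regulatory particle, fell, with log2 fold changes of -1.25 and -1.08. Of 28 tested heat shock protein genes 21 fell and 1 rose, with a median of -0.58. *HSPA8*, the constitutive HSC70 chaperone (ENSG00000109971, chromosome 11 of GRCh38 from 123057489 to 123063230), had 2719.8, 2786 and 2707 CPM with DMSO and 803, 842 and 831 CPM with ponatinib. The values within each group were close and the groups far apart, with a log2 fold change of -1.73 ± 0.07 (adjusted p = 7.87e-09). *HSP90AB1*, the constitutive HSP90, went from 2513 ± 17.2 to 1371 ± 19.2 CPM (log2 fold change -0.87 ± 0.07, adjusted p = 1.07e-06), while *CCT6A*, of the chaperonin that folds actin and tubulin, changed by -0.97 (log2). The member that rose was the small heat shock protein *HSPB1* (0.71).

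In the endoplasmic reticulum the list was also mainly lower, with 19 of 35 tested genes down, 4 up and a median of -0.26. *SDF2L1* had a log2 fold change of -1.24, *SEC24D*, a COPII coat protein, of -0.87, and *MANF*, a secreted stress protein, of -0.75. *HERPUD1*, *EDEM2* and *SEL1L*, which act in the degradation of misfolded proteins, rose by 0.87, 0.56 and 0.53 (log2). Of 23 aminoacyl-tRNA synthetases 11 (47.8%) were lower, against 26.8% of all genes, and 6 (26.1%) were higher, near the 27.2% of all genes. *AARS1*, the enzyme for alanine, rose from 215 ± 12.3 to 529 ± 8.03 CPM (log2 fold change 1.3 ± 0.07, adjusted p = 1.09e-07), and *WARS1*, for tryptophan, by 0.83 (log2). *FARSB*, for phenylalanine, fell from 51.2 ± 1.72 to 24.9 ± 2.43 CPM (log2 fold change -1.04 ± 0.10, adjusted p = 3.71e-06).

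**Figure D3:**
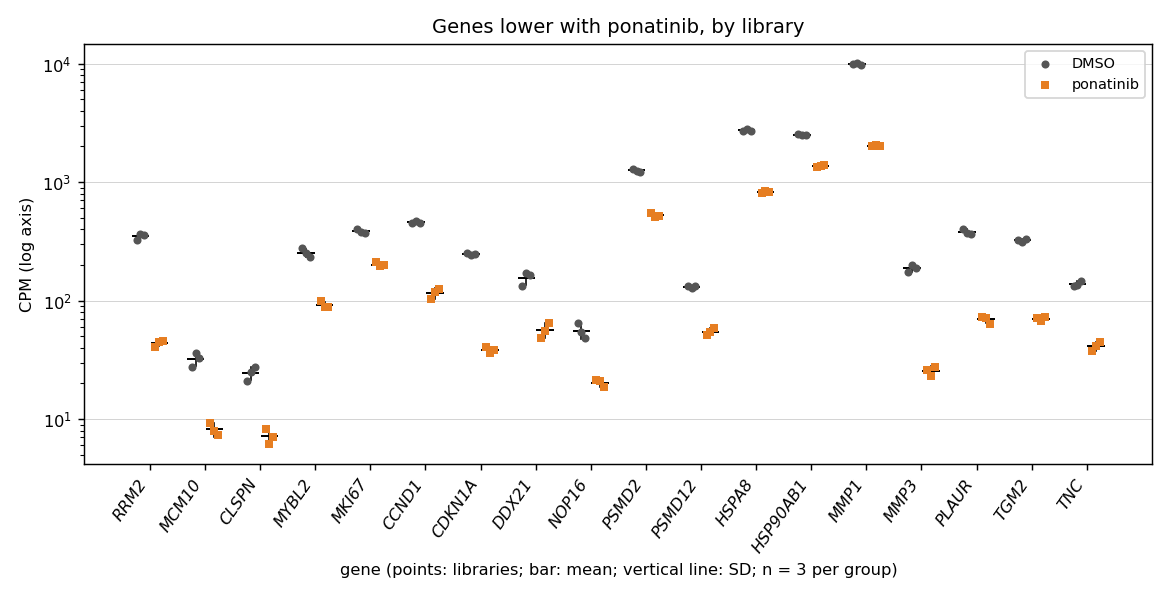
CPM on a log axis in each library for 18 genes lower with ponatinib (grey circles DMSO, orange squares ponatinib, horizontal bars means, vertical lines SD, 3 libraries per group). In each of the 18 genes all ponatinib points lie below all DMSO points.

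Secreted proteases and their regulators were among the largest falls. Of 42 tested matrix proteases and inhibitors 17 were lower, 12 of them by more than 2-fold, and 8 were higher. *MMP1*, interstitial collagenase (ENSG00000196611, chromosome 11 of GRCh38 from 102789401 to 102798160), had 9898, 10119 and 9749.8 CPM with DMSO and 2036, 2041 and 2036 CPM with ponatinib. The libraries of each group differed little, with a log2 fold change of -2.28 ± 0.07 (adjusted p = 1.41e-09), and no other tested gene lost as many CPM. *MMP3*, stromelysin, went from 187 ± 11.8 to 25.6 ± 2.25 CPM (log2 fold change -2.87 ± 0.09, adjusted p = 1.79e-09), *ADAMTS1*, a protease of proteoglycans, from 63.2 ± 6.69 to 8.82 ± 1.76 CPM (log2 fold change -2.83 ± 0.14, adjusted p = 3.84e-08), and *PLAUR*, the urokinase receptor, from 380.0 ± 20.7 to 69.4 ± 4.77 CPM (log2 fold change -2.45 ± 0.08, adjusted p = 2.73e-09). In the other direction, the membrane protease *MMP15*, *ADAMTS15* and the inhibitor *TIMP3* rose by 1.27, 1.09 and 0.95 on the log2 scale.

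Structural matrix genes rose more often than they fell. Of 46 tested collagens, laminins and matrix glycoproteins 22 (47.8%) rose, against 27.2% of all genes. Another 11 (23.9%) fell, against 26.8% of all genes, and the median of the list was 0.41. *COL16A1*, a collagen associated with fibrils, went from 3.93 ± 0.813 to 22.2 ± 1.18 CPM (log2 fold change 2.49 ± 0.15, adjusted p = 1.67e-07). *HSPG2*, the basement membrane proteoglycan perlecan, rose by 1.65 (log2) and *COL6A1* by 1.48 (log2). *COL17A1*, a hemidesmosomal collagen, fell from 13.8 ± 0.873 to 1.84 ± 0.173 CPM (log2 fold change -2.91 ± 0.16, adjusted p = 8.08e-08), while *TNC*, tenascin C, and *THBS1*, thrombospondin, fell, with log2 fold changes of -1.74 and -1.35. Of enzymes that mature collagen, *LOXL4*, a lysyl oxidase, had 4.44, 5.57 and 5.47 CPM with DMSO and 52.7, 48.5 and 48.3 CPM with ponatinib. The groups did not come near each other, with a log2 fold change of 3.27 ± 0.12 (adjusted p = 3.58e-09). *TGM2*, the crosslinking enzyme transglutaminase, moved the opposite way, from 323 ± 9.58 to 70.5 ± 3.42 CPM (log2 fold change -2.19 ± 0.08, adjusted p = 2.82e-09). For the collagen maturation list, 8 of 20 (40%) were lower and 5 (25%) higher, against the same shares of all genes. With total counts 4 were lower and 6 higher.

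Hyaluronan and proteoglycan genes changed in both directions. *HAS2*, a hyaluronan synthase, had 17.9, 22 and 20.1 CPM with DMSO and 0.568, 0.255 and 0.219 CPM with ponatinib (log2 fold change -5.84 ± 0.24, adjusted p = 9.51e-09). It passed the filter on low counts through the DMSO group. *GPC1* (glypican), *SDC2* and *SDC3* (syndecans), which hold growth factors at the cell surface, rose by 1.62, 1.34 and 1.13 on the log2 scale. *SRGN*, serglycin, and *CSPG5* fell, with log2 fold changes of -1.0 and -1.17. Of 33 tested, 12 (36.4%) were lower and 10 (30.3%) higher, not far from the 26.8% and 27.2% of all genes, and with total counts 10 were lower and 11 higher.

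Adhesion and cytoskeleton genes were divided as well. *ITGB4*, the integrin of hemidesmosomes, had 21.9, 22.1 and 23.5 CPM with DMSO and 92, 85.5 and 92.4 CPM with ponatinib, a log2 fold change of 2.0 ± 0.08 (adjusted p = 1.02e-08). *ITGA6*, which pairs with it, fell from 166 ± 20.2 to 71.4 ± 7.18 CPM (log2 fold change -1.22 ± 0.11, adjusted p = 2.37e-06). The actin crosslinkers *FLNC* and *ACTN1* fell, with log2 fold changes of -1.02 and -0.98, and the adhesion scaffolds *TNS3* and *NEDD9* rose by 1.26 and 1.22 (log2). The integrin list had 14 (35.9%) lower and 13 (33.3%) higher of 39, not far from the 26.8% and 27.2% of all genes, and 12 lower and 16 higher with total counts. Of 41 actin and SRF target genes 21 were lower and 8 higher, with a median of -0.24. *FOSL1*, an AP-1 factor that is high in this line, went from 857 ± 77.5 to 129.9 ± 9.55 CPM (log2 fold change -2.72 ± 0.09, adjusted p = 2.73e-09). *ACTB* itself, beta-actin, went from 5796 ± 296 to 3893 ± 67.8 CPM (log2 fold change -0.57 ± 0.07, adjusted p = 4.37e-05), so its share of the reads was not constant. *TPM1* and *TPM2*, tropomyosins, and *FHL1* rose by 0.74, 1.29 and 2.66 (log2). *CCN2*, a target shared by SRF, YAP and TGF-β, went from 228 ± 23.9 to 75.3 ± 6.49 CPM (log2 fold change -1.6 ± 0.10, adjusted p = 1.82e-07), and *ANKRD1*, another YAP target, changed by -0.76 (log2). The YAP-TEAD list had 13 (37.1%) lower and 9 (25.7%) higher of 35, against the same shares of all genes, and 10 lower and 11 higher with total counts. Its log2 fold changes ran from -1.60 to 8.27, and its member *TGFB2*, looked up after the values were seen, rose by 1.16.

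Inflammatory genes moved in both directions, with 12 of 26 (46.2%) higher and 10 (38.5%) lower, against 27.2% and 26.8% of all genes. With DESeq2, run without the filter on low counts, 10 of 32 members were higher and 11 lower. With at least 10 counts required in every library, 19 were tested, of which 7 were higher and 9 lower. *CXCL8*, a chemokine of neutrophils (ENSG00000169429, chromosome 4 of GRCh38 from 73740519 to 73743716), had 323, 404 and 370.4 CPM with DMSO and 28.2, 38.9 and 36.9 CPM with ponatinib and a log2 fold change of -3.4 ± 0.13 (adjusted p = 4.90e-09). *PTGS2*, cyclooxygenase 2, went from 41.8 ± 3.9 to 3.8 ± 0.851 CPM (log2 fold change -3.46 ± 0.15, adjusted p = 1.50e-08). *IL1B*, the cytokine interleukin-1β, and *CSF3*, a growth factor of neutrophils, had the largest falls of the list, with log2 fold changes of -5.29 and -5.36. *IL24* and *CSF2* fell, with log2 fold changes of -3.33 and -3.18. *CSF1*, the macrophage growth factor, rose, with 66.3, 69.9 and 70.8 CPM with DMSO and 391, 393 and 405 CPM with ponatinib. The lowest ponatinib library was above 5 times the highest DMSO library, with a log2 fold change of 2.52 ± 0.07 (adjusted p = 1.08e-09). *CXCL16* and *CCL28* rose from lower levels, by 1.11 and 0.86 (log2). The AP-1 letters TGANTCA occurred in 6 of 19 list members with a promoter (31.6%) and in 4.7% of all promoters of tested genes. They were present in 3 of the 8 lower and in 2 of the 8 higher members. Over all genes lower by more than 2-fold the share was 7.49%, and over those higher by more than 2-fold 6.14%. As the list holds inflammatory genes, its share describes the list and not the treatment. The NF-κB letters GGGNNTTCC were in 3 of the 19 (15.8%) and in 8.22% of all promoters, with 1 of the 8 lower and 1 of the 8 higher members. Windows of 2 genes that fell, *CXCL8* and *IL11* (-3.85), and 2 that rose, *CXCL11* (1.56) and *IL23A* (1.78), are given with the AP-1 letters in capitals.
CXCL8, chr4:73740422-73740448 (plus strand): ggaagtgtgaTGACTCAggtttgccct
IL11, chr19:55370543-55370569 (minus strand): gcagggagggTGAGTCAggatgtgtca
CXCL11, chr4:76036141-76036167 (minus strand): gaaaggtgcaTGACTCAaagagggaaa
IL23A, chr12:56338797-56338823 (plus strand): ccacctgctgTGAGTCAcctgctggta

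Feedback genes of NF-κB were more often lower than higher, with 14 of 26 (53.8%) lower and 7 (26.9%) higher, against 26.8% and 27.2% of all genes. *TNFAIP3* (A20), *CD83* and *NFKBIZ* had log2 fold changes of -1.54, -1.09 and -1.02, while *BCL3*, *MAP3K14* (NIK) and *TNFAIP2* had 0.81, 0.75 and 0.47. Among growth factors, *FGF5* went from 65.9 ± 3.28 to 9.1 ± 1.76 CPM (log2 fold change -2.86 ± 0.13, adjusted p = 1.68e-08). *BMP4* and *IGF2* rose by 1.26 and 2.08 (log2), and *GDF15*, a stress-induced cytokine, went from 6.18 ± 1.15 to 45.8 ± 4.83 CPM (log2 fold change 2.89 ± 0.14, adjusted p = 3.65e-08). Of 38 growth factor genes 15 (39.5%) rose and 14 (36.8%) fell, and with the replicate number as a block 15 rose and 17 fell. Without ponatinib replicate 1, 14 rose and 15 fell.

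Cholesterol synthesis genes rose without a fall among them. Of 26 tested genes of cholesterol synthesis and uptake 18 were higher, 0 were lower and 10 rose by more than 2-fold, against 10.7% of all genes, with a median of 0.63. *LSS*, lanosterol synthase (ENSG00000160285, chromosome 21 of GRCh38 from 46188141 to 46228824), had 148, 137 and 139.9 CPM with DMSO and 501, 489 and 494 CPM with ponatinib. The values within a group lay close together, with a log2 fold change of 1.8 ± 0.07 (adjusted p = 6.96e-09). *TM7SF2*, a sterol reductase, went from 18.4 ± 1.91 to 76.1 ± 8.47 CPM (log2 fold change 2.04 ± 0.11, adjusted p = 8.08e-08). The letters TCACNCCAC, a sterol regulatory element, were in 1 of 19 list members with a promoter (5.26%) and in 1.1% of all promoters of tested genes.

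The largest rise among genes of fatty acid and lipid synthesis was that of *ACSS2*, which makes acetyl-CoA from acetate (ENSG00000131069, chromosome 20 of GRCh38 from 34872146 to 34927962). It had 37.9, 34.8 and 31 CPM with DMSO and 278, 268 and 270.1 CPM with ponatinib, which is a log2 fold change of 2.98 ± 0.09 (adjusted p = 1.08e-09). *SCD*, the desaturase that makes oleate, went from 109 ± 3.88 to 335 ± 12 CPM (log2 fold change 1.62 ± 0.07, adjusted p = 1.88e-08), and *ACACB*, a carboxylase at mitochondria, rose by 1.28 (log2). The acyl-CoA synthetases *ACSL4* and *ACSL5* and the acyltransferase *GPAM* fell, with log2 fold changes of -0.68, -0.65 and -0.54. Of 28 tested genes of the list 14 (50%) rose and 7 (25%) fell, against 27.2% and 26.8% of all genes. With total counts 14 rose and 4 fell. For cholesterol efflux and lipid transport, 16 of 24 rose and 1 fell, the receptor *SCARB1* (-0.57). *LRP1*, an endocytic receptor, went from 31.3 ± 2.79 to 104 ± 5.86 CPM (log2 fold change 1.73 ± 0.09, adjusted p = 5.88e-08), and *NR1H3*, the oxysterol-sensing factor LXRα, from 8.44 ± 0.935 to 27.6 ± 3.62 CPM (log2 fold change 1.71 ± 0.14, adjusted p = 1.22e-06). Among genes of lipid droplets and fatty acid oxidation 16 of 36 rose and 3 fell, and 20 rose and 8 fell with the replicate block. Without ponatinib replicate 1, 15 rose and 5 fell. *PPARGC1A*, the coactivator PGC-1α, went from 1.96 ± 0.491 to 14.7 ± 0.382 CPM (log2 fold change 2.9 ± 0.18, adjusted p = 1.94e-07), and the mitochondrial enzyme *ECI1* rose by 1.04 (log2).

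Lysosomal genes were higher in 33 of 62 cases and lower in 6, with a median of 0.28. *CTSD*, the aspartic protease cathepsin D (ENSG00000117984, chromosome 11 of GRCh38 from 1752752 to 1764573), had 482, 344 and 346 CPM with DMSO and 2341, 1811 and 1600.3 CPM with ponatinib. Replicate 1 was the highest library of both groups, and the groups stayed apart, with a log2 fold change of 2.29 ± 0.16 (adjusted p = 4.51e-07). *CTSO*, a cysteine cathepsin, rose by 1.91 (log2) from a low level and *MANBA*, a mannosidase, from 8.82 ± 0.524 to 24 ± 1.89 CPM (log2 fold change 1.44 ± 0.12, adjusted p = 1.37e-06). The galactosidase *GLA* fell by 0.87 (log2) and the proton pump subunits *ATP6V0B* and *ATP6V1D* fell, with log2 fold changes of -0.50 and -0.50. The letters TCACGTGA, an E-box bound by TFEB, were found in 7 of 39 list members with a promoter (17.9%) and in 1.94% of all promoters of tested genes. As the list holds lysosomal genes, its share describes the list and not the treatment. Over all genes higher by more than 2-fold the share was 1.7%, and over those lower by more than 2-fold 1.34%. The letters stood in 3 of 20 higher and in 1 of 5 lower members of the list. The 3 higher members were the glucosidase *GAA* (0.93), the protective protein *CTSA* (0.68) and the membrane protein *LAMP1* (0.28), shown with the E-box in capitals.
GAA, chr17:80101494-80101521 (plus strand): ggaggccgcgTCACGTGAcccaccgcgg
CTSA, chr20:45891299-45891326 (plus strand): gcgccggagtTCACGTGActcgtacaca
LAMP1, chr13:113297200-113297227 (plus strand): acccgcgggaTCACGTGAcgcccgggcg

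Autophagy genes had 17 higher and 4 lower of 41, and 19 higher and 9 lower with the replicate block. *ULK1*, the kinase that starts autophagy, had 35.6, 34.7 and 36.1 CPM with DMSO and 74, 75.2 and 76.5 CPM with ponatinib and a log2 fold change of 1.08 ± 0.08 (adjusted p = 6.02e-07). *TP53INP1* and *DEPP1* rose by 1.88 and 2.22 (log2). The conjugation genes *ATG4A*, *ATG7* and *ATG3* fell, with log2 fold changes of -0.59, -0.45 and -0.41.

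FOXO factors and targets had the highest share of rises beyond 2-fold, 14 of 28, with 20 higher in all, 1 lower and a median of 0.99. *PIK3IP1*, an inhibitor of PI3K (ENSG00000100100, chromosome 22 of GRCh38 from 31281594 to 31292534), had 2.45, 1.81 and 2.33 CPM with DMSO and 16.6, 19 and 21.3 CPM with ponatinib. This log2 fold change of 3.11 ± 0.17 (adjusted p = 7.40e-08) was the largest rise on the list. *FBXO32* (atrogin-1), a ubiquitin ligase of muscle wasting, went from 45.8 ± 2.29 to 225 ± 22.2 CPM (log2 fold change 2.29 ± 0.09, adjusted p = 6.96e-09), and *SESN3*, a sestrin that restrains mTORC1, from 2.58 ± 0.602 to 12.2 ± 0.65 CPM (log2 fold change 2.24 ± 0.18, adjusted p = 1.26e-06). The pseudokinase gene *TRIB1* was the member that fell (-0.91). The FOXO letters GTAAACA were found in 3 of 24 promoters of the list (12.5%) and in 2.26% of all. As the list holds known FOXO targets, its share describes the list and not the treatment. Over all genes higher by more than 2-fold the share was 3.4%, and over those lower by more than 2-fold 2.3%. The matches on the list were in *DEPP1*, *BCL2L11* (BIM, 0.91) and *FOXO4* (1.47). The first and second are shown with the FOXO letters in capitals.
DEPP1, chr10:44978973-44978999 (minus strand): gccctgcagcGTAAACAttccccagcc
BCL2L11, chr2:111120681-111120707 (plus strand): agttactccgGTAAACAcgccagggac

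Stress genes of the amino acid response rose in 23 of 33 cases and fell in 4, with a median of 0.42. *DDIT4* (REDD1), an inhibitor of mTORC1 (ENSG00000168209, chromosome 10 of GRCh38 from 72273919 to 72276036), had 8.42, 10.9 and 13.5 CPM with DMSO and 175, 184 and 217 CPM with ponatinib. Every ponatinib library was over 10 times the highest DMSO library, with a log2 fold change of 4.13 ± 0.15 (adjusted p = 4.17e-09). *PPP1R15A* (GADD34), which ends the response by removing the phosphate from eIF2α, went the other way, from 708 ± 72.6 to 309 ± 16.7 CPM (log2 fold change -1.19 ± 0.09, adjusted p = 7.73e-07). The transporter *SLC7A1* and the proline enzyme *ALDH18A1* fell, with log2 fold changes of -0.79 and -0.68. *SLC6A9*, a glycine transporter, rose from 20.7 ± 1.71 to 58.8 ± 2.29 CPM (log2 fold change 1.5 ± 0.09, adjusted p = 2.05e-07).

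Antioxidant genes of NRF2 had 16 of 31 higher and 6 lower. *ABCC3*, a drug and bile acid exporter, had 1.19, 2.4 and 1.82 CPM with DMSO and 18.4, 17.3 and 17.4 CPM with ponatinib and a log2 fold change of 3.29 ± 0.19 (adjusted p = 1.31e-07). *AKR1C1*, a ketosteroid reductase with near-identical paralogs, and *TRIM16L* rose by 2.94 and 1.9 (log2). *GCLM*, needed for glutathione synthesis, fell from 55.9 ± 3.39 to 28 ± 3.3 CPM (log2 fold change -1.0 ± 0.10, adjusted p = 9.62e-06), and *TXN*, thioredoxin, fell by 0.52 (log2). Of iron genes, *FTH1*, ferritin heavy chain, had 519.6, 411 and 447 CPM with DMSO and 1321, 1028 and 624 CPM with ponatinib (log2 fold change 1.11 ± 0.21, adjusted p = 0.000744). The groups did not overlap, but the ponatinib libraries were widely spread. *TFRC*, the transferrin receptor, fell from 219 ± 13.7 to 120.2 ± 6.26 CPM (log2 fold change -0.87 ± 0.08, adjusted p = 3.44e-06). Of the metallothioneins, *MT2A* had a log2 fold change of -1.43 and *MT1E* of 0.72, and these genes are similar enough in sequence that reads could be shared between them.

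Glycolysis and hypoxia genes had 13 (33.3%) lower and 12 (30.8%) higher of 39, not far from the 26.8% and 27.2% of all genes. With total counts 11 were lower and 13 higher, and with the replicate block 21 were lower and 13 higher. *HK2*, hexokinase 2, went from 59.4 ± 4.64 to 26 ± 4.76 CPM (log2 fold change -1.19 ± 0.13, adjusted p = 1.19e-05), *SLC2A1*, the glucose transporter GLUT1, from 390.1 ± 8.22 to 239 ± 10.3 CPM (log2 fold change -0.71 ± 0.07, adjusted p = 7.34e-06) and *PGAM1* changed by -0.68 (log2). The aldolase *ALDOC* rose by 1.7 (log2) and *ANKRD37* by 1.5 (log2). Of 69 nuclear genes of oxidative phosphorylation 6 were higher and 7 lower, 0 beyond 2-fold, and with total counts 18 were higher and 6 lower. With the replicate number as a block, 21 were higher and 19 lower, and these counts also moved with single libraries, to 2 higher and 16 lower without ponatinib replicate 1 and 13 higher and 7 lower without DMSO replicate 1. With any 1 of the other libraries left out, 0 to 9 were higher and 5 to 7 lower, so no direction can be given. The lowest value was that of *ATP5MC1*, with a log2 fold change of -0.71. Of 16 tested genes of the mitochondrial genome 6 rose and 0 fell, and these genes held 5.17% to 5.3% of the counts with DMSO and 6.38% to 6.56% with ponatinib. *MT-RNR2*, the large ribosomal RNA of mitochondria, went from 4635 ± 201 to 7901 ± 31.8 CPM (log2 fold change 0.77 ± 0.07, adjusted p = 3.82e-06). The *MT-CO1* call (0.25) was lost without DMSO replicate 2, at an adjusted p of 0.0812.

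Of 45 tested epithelial junction and keratin genes 23 were higher, 15 of them by more than 2-fold, and 4 were lower, with a median of 0.45. With at least 10 counts required in every library, 36 were tested, of which 18 were higher and 3 lower, with a median of 0.32. *JUP*, plakoglobin of desmosomes and adherens junctions (ENSG00000173801, chromosome 17 of GRCh38 from 41754604 to 41786931), had 31, 23.5 and 29.6 CPM with DMSO and 136, 129 and 128 CPM with ponatinib and a log2 fold change of 2.23 ± 0.10 (adjusted p = 2.25e-08). *TJP3*, a scaffold of tight junctions, rose from under 1 CPM in each DMSO library to 6.69, 6.05 and 5.48 CPM (log2 fold change 3.72 ± 0.28, adjusted p = 8.67e-07). It passed the filter on low counts through the ponatinib group. The largest fall on the list was that of *KRTAP2-3*, a keratin-associated protein, from 33.3 ± 3.44 to 0.735 ± 0.232 CPM (log2 fold change -5.51 ± 0.19, adjusted p = 2.82e-09). *KRT15* and *CLDN12* fell too, with log2 fold changes of -0.76 and -0.59. Of 17 tested mesenchymal genes 3 rose and 6 fell, with a median of -0.08, and with the replicate block 5 rose and 7 fell. *VIM*, vimentin, went from 1288 ± 109.9 to 817 ± 110.4 CPM (log2 fold change -0.66 ± 0.10, adjusted p = 0.000236), and *CD44* and *NT5E* (CD73) had log2 fold changes of -0.77 and -1.42. *FN1*, fibronectin, rose from 123 ± 15.4 to 207 ± 20.6 CPM (log2 fold change 0.75 ± 0.10, adjusted p = 9.05e-05), and *S100A4* rose by 2.39 (log2). With *CDH1* at 0 to 1 counts in each library, no statement on E-cadherin can be made. Of the luminal markers, *ERBB2* rose by 0.81 (log2), and *SPDEF* and *XBP1* fell, with log2 fold changes of -0.87 and -0.44. The sums of the luminal markers overlapped between the groups (888 to 999.8 CPM with DMSO and 994 to 1091 CPM with ponatinib), and their part in the epithelial counts was not tested.

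**Figure D4:**
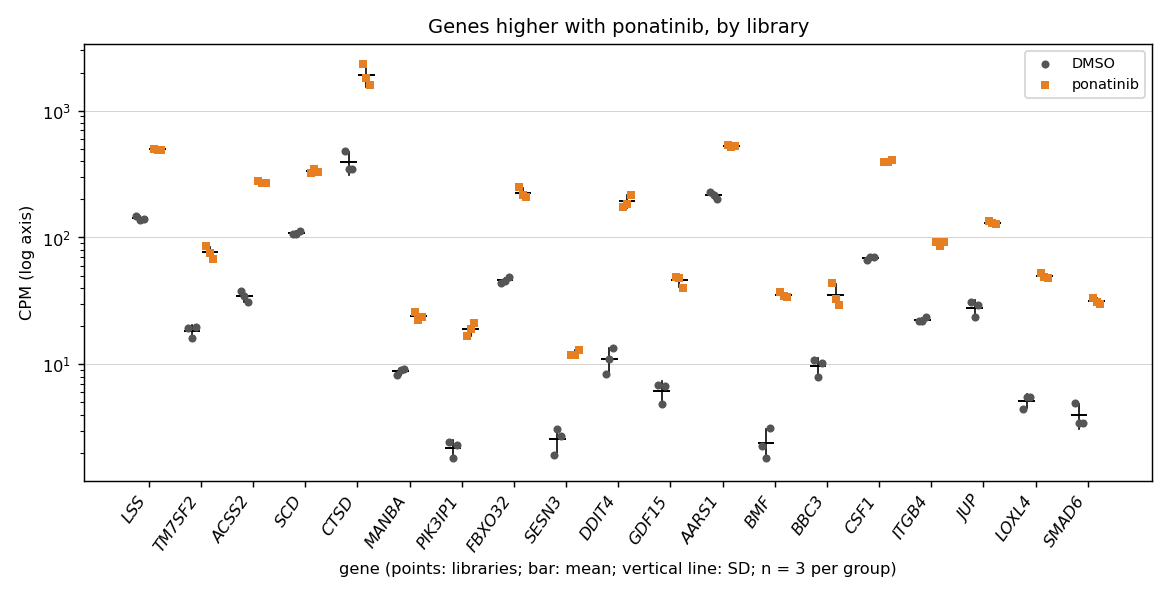
CPM on a log axis in each library for 19 genes higher with ponatinib (grey circles DMSO, orange squares ponatinib, horizontal bars means, vertical lines SD, 3 libraries per group). In each of the 19 genes all ponatinib points lie above all DMSO points, and the fold change is smallest for *AARS1* and largest for *DDIT4*.

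Receptor tyrosine kinases were higher in 14 of 28 cases (50%) and lower in 6 (21.4%), against 27.2% and 26.8% of all genes. *EPHA2*, an ephrin receptor, fell from 663 ± 20.2 to 214 ± 6.13 CPM (log2 fold change -1.63 ± 0.07, adjusted p = 1.53e-08), and *MET*, the receptor of hepatocyte growth factor, fell by 0.64 (log2). *ERBB3* rose from 2.39 ± 0.174 to 8.16 ± 0.348 CPM (log2 fold change 1.77 ± 0.17, adjusted p = 4.33e-06), and *DDR1*, a collagen receptor, from 37.1 ± 4.26 to 82.8 ± 1.25 CPM (log2 fold change 1.16 ± 0.09, adjusted p = 1.48e-06). *PDGFRB*, the receptor of PDGF-B and a mesenchymal gene, was under 1 CPM in each DMSO library and at 8.64, 8.35 and 10.7 CPM with ponatinib (log2 fold change 4.33 ± 0.29, adjusted p = 3.97e-07). It passed the filter on low counts through the ponatinib group. Guidance molecules were higher in 17 of 37 cases (45.9%), led among those above 5 CPM by *SEMA3B* (2.45). They were lower in 8 (21.6%), led by *SEMA7A* (-1.94) and *PLXNA2* (-1.73). With the replicate block 17 were higher and 13 lower. *SEMA6B* fell by 1.45 (log2), with DMSO libraries between 72.3 and 139 CPM.

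In the list of TGF-β and BMP target genes 15 of 39 (38.5%) were higher and 12 (30.8%) lower, against 27.2% and 26.8% of all genes. The largest rise was that of *ATOH8*, a transcription factor gene, with 5.19 on the log2 scale. *SMAD6*, an inhibitor of BMP signaling that BMP itself induces, had 4.97, 3.43 and 3.46 CPM with DMSO and 33.4, 31.2 and 30.1 CPM with ponatinib and a log2 fold change of 3.0 ± 0.15 (adjusted p = 3.50e-08). *ID4*, also a BMP target, rose by 2.74 (log2). *CCN2*, above, and *SMURF2* (-1.22), both known TGF-β targets, fell. *ID1* (1.53), *ID2* (2.2) and *ID3* (2.33), looked up after the values were seen, rose. Of Wnt and Notch genes, *HES1* (-1.55), *FZD8* (-1.45) and *WNT7B* (-1.38) were down and the Notch ligand *JAG2* (1.28) and *TCF7L1* (0.79) up. In this list 12 of 37 (32.4%) were higher and 9 (24.3%) lower, not far from the 27.2% and 26.8% of all genes. Without DMSO replicate 2, 9 were higher and 11 lower, and without DMSO replicate 3, 7 were higher and 9 lower.

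Interferon-stimulated genes were higher in 35 of 56 cases, 19 of them by more than 2-fold, and lower in 4, with a median of 0.56. *XAF1*, a pro-apoptotic factor, had 3.25, 3.5 and 2.89 CPM with DMSO and 16.6, 16 and 15.7 CPM with ponatinib and a log2 fold change of 2.32 ± 0.14 (adjusted p = 1.61e-07). *TRIM22*, an antiviral ubiquitin ligase, went from 1.21 ± 0.545 to 7.23 ± 0.663 CPM (log2 fold change 2.58 ± 0.26, adjusted p = 7.77e-06). *GBP3*, *IFIT5* and *OAS3* fell, with log2 fold changes of -0.70, -0.47 and -0.42. The letters TTCNNTTTC, the core of the interferon-stimulated response element, were found on either strand in 28 of 43 list members with a promoter (65.1%) and in 6.34% of all. The list holds known interferon-stimulated genes, so this share describes the list and not the treatment. Over all genes higher by more than 2-fold 6.52% held the letters, and over those lower by more than 2-fold 4.8%. Among list members the share was 18 of 25 for higher and 3 of 4 for lower members. Windows are given for *IFIT1* (1.97) and *EPSTI1* (2.03), which rose, and for *IFIT5*, which fell, with the element in capitals.
IFIT1, chr10:89392498-89392526 (plus strand): tagctttagtTTCACTTTCccctttcggt
EPSTI1, chr13:42992273-42992301 (minus strand): ctgattctgaGAAACCGAAactcagctgt
IFIT5, chr10:89414514-89414542 (plus strand): tctattaagtTTCGGTTTCtgaagcttac

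**Figure D5:**
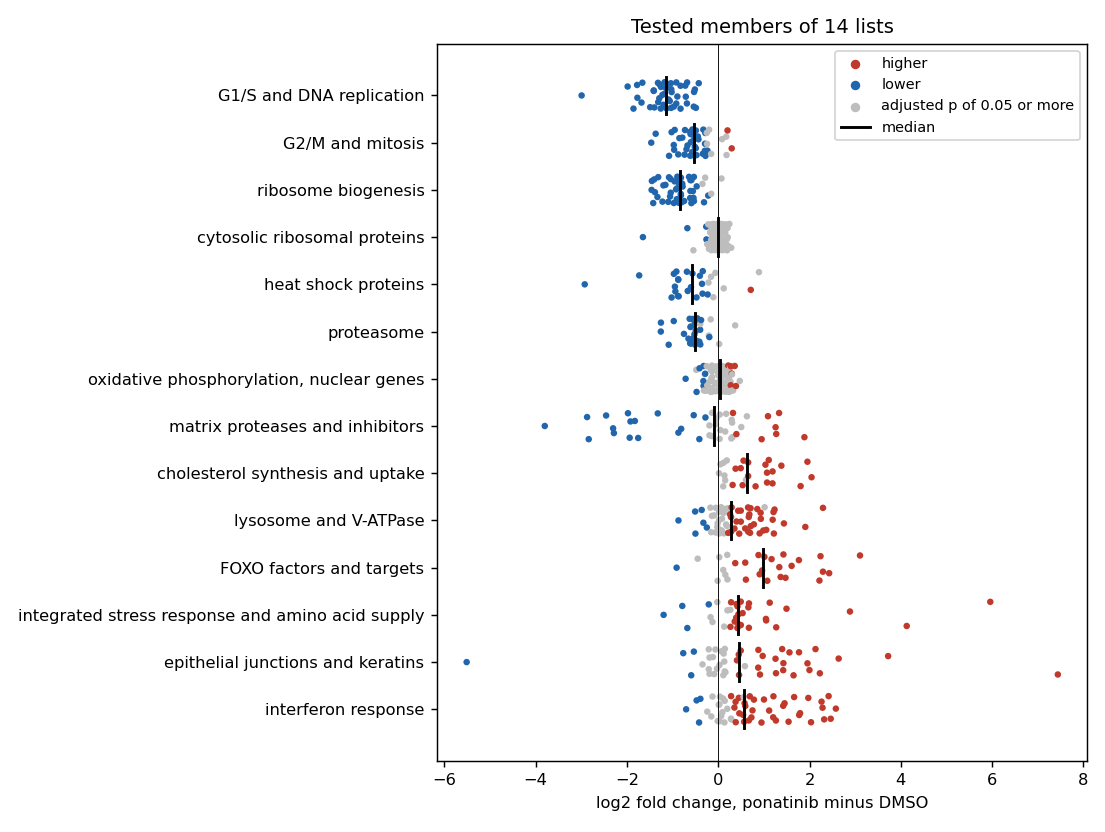
Log2 fold change (ponatinib minus DMSO) of every tested member of 14 lists, with red points higher, blue points lower and grey points not past the test, and a black bar at the median. The replication list lies wholly below zero with a median of -1.14, cytosolic ribosomal proteins lie close to zero, and FOXO genes have the highest of these medians, 0.99.

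Genes of antigen presentation were higher in 17 of 38 cases (44.7%) and lower in 10 (26.3%), against 27.2% and 26.8% of all genes. *HLA-DMA* and *TAPBPL*, which edit the peptides of MHC molecules, and *TNFRSF14* rose by 1.9, 1.47 and 1.35 (log2). *CD274*, the gene of PD-L1, fell from 19.2 ± 0.833 to 3.95 ± 0.604 CPM (log2 fold change -2.28 ± 0.14, adjusted p = 1.97e-07), and the NKG2D ligand *ULBP2* and the peptide transporter *TAP2* fell, with log2 fold changes of -1.47 and -1.08. Complement and coagulation genes had 13 of 28 (46.4%) higher and 7 (25%) lower, against the same shares of all genes. *CLU*, clusterin, went from 46.2 ± 5.61 to 163 ± 18.4 CPM (log2 fold change 1.82 ± 0.11, adjusted p = 1.57e-07), *C1R*, a protease of the classical pathway, rose by 1.69 (log2), and *TFPI2*, an inhibitor of proteases, fell from 75.3 ± 2.11 to 19.6 ± 1.9 CPM (log2 fold change -1.94 ± 0.09, adjusted p = 3.31e-08). Of 21 tested prostaglandin genes 7 (33.3%) were higher and 6 (28.6%) lower, not far from the 27.2% and 26.8% of all genes. With at least 10 counts required in every library 3 were higher and 5 lower. Besides *PTGS2*, above, the receptor *PTGER4* (-0.99) and the phospholipase *PLA2G4A* (-0.77) fell. *PLA2G6*, another phospholipase, rose from 3.36 ± 0.382 to 22.5 ± 2.1 CPM (log2 fold change 2.74 ± 0.14, adjusted p = 5.27e-08) and *PTGES*, a prostaglandin E synthase, by 1.31 (log2).

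Cell death genes were lower in 19 of 36 cases (52.8%) and higher in 9 (25%), against 26.8% and 27.2% of all genes. *BMF*, a BH3-only protein that triggers apoptosis (ENSG00000104081, chromosome 15 of GRCh38 from 40087890 to 40108892), had 2.25, 1.81 and 3.15 CPM with DMSO and 36.8, 34.7 and 34.1 CPM with ponatinib. The groups were more than 10-fold apart, with a log2 fold change of 3.86 ± 0.16 (adjusted p = 9.51e-09). *BBC3* (PUMA), of the same class, went from 9.68 ± 1.52 to 35.2 ± 7.41 CPM (log2 fold change 1.86 ± 0.16, adjusted p = 2.76e-06), and *BCL2L11* (BIM) from 9.19 ± 1.68 to 17.3 ± 0.469 CPM (log2 fold change 0.91 ± 0.14, adjusted p = 0.000186). *BCL2A1*, which protects from apoptosis, fell from 22.7 ± 0.554 to 3.9 ± 0.107 CPM (log2 fold change -2.54 ± 0.12, adjusted p = 2.76e-08), and the death receptor *TNFRSF10A* had a log2 fold change of -1.25. Of 27 tested p53 target genes 12 (44.4%) were lower and 10 (37%) higher, and with total counts 9 lower and 10 higher. *AEN*, a nuclease of apoptosis, went from 82.7 ± 0.831 to 15.9 ± 1.03 CPM (log2 fold change -2.38 ± 0.09, adjusted p = 4.26e-09). *TIGAR*, which lowers glycolysis, fell by 0.98 (log2).

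Solute carriers had 14 of 41 (34.1%) lower and 10 (24.4%) higher, not far from the 26.8% and 27.2% of all genes. The number higher was 5 without DMSO replicate 2 and 6 without ponatinib replicate 2. Of these genes, *SLC22A4*, *SLC4A7* and *SLC7A2* fell, with log2 fold changes of -1.52, -1.47 and -1.31. The glutamate transporter *SLC1A3* and the zinc exporter *SLC30A1* rose by 1.23 and 0.71 (log2).

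Some of the largest changes lay outside the lists. Among protein-coding genes above 10 CPM, *SPRY4*, a feedback inhibitor of receptor signaling, fell from 52.3 ± 2.07 to 6.03 ± 1.17 CPM (log2 fold change -3.12 ± 0.13, adjusted p = 9.45e-09), *CFAP45*, a protein of cilia, from 32.2 ± 1.78 to 3.74 ± 0.473 CPM (log2 fold change -3.1 ± 0.13, adjusted p = 9.33e-09), and *GPR3* and *MPP4* fell, with log2 fold changes of -3.33 and -3.6. *S100P*, a calcium-binding protein, was under 1 CPM in each DMSO library and at 22, 17.4 and 17 CPM with ponatinib (log2 fold change 4.85 ± 0.25, adjusted p = 4.57e-08). *KCP*, which enhances BMP signaling, rose from 0.649 ± 0.182 to 14.6 ± 1.61 CPM (log2 fold change 4.48 ± 0.22, adjusted p = 2.97e-08), and *MAP2K6* by 4.87 (log2). *S100P* and *KCP* passed the filter on low counts through the ponatinib group. *AQP3*, a channel for water and glycerol, rose from 2.45 ± 0.397 to 23.8 ± 2.02 CPM (log2 fold change 3.27 ± 0.15, adjusted p = 2.30e-08), the flippase *ATP8A1* by 3.48 (log2), the chloride channel protein *CLIC3* by 3.52 (log2) and the matrix protein *OLFML2A* by 3.47 (log2).

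By the number of reads gained or lost, abundant genes led. After *MMP1*, the losses were largest for *HSPA8*, *ACTB*, *HMGA1* and *HSP90AB1*. *HMGA1*, a chromatin architectural protein, had 2929.9, 2388 and 2689.8 CPM with DMSO and 907, 754 and 774 CPM with ponatinib (log2 fold change -1.72 ± 0.10, adjusted p = 1.24e-07). The gains were led by *EEF1A1*, the elongation factor that brings tRNA to the ribosome, with 11392, 11343 and 11336 CPM with DMSO and 15097, 15489 and 15399.5 CPM with ponatinib. Its log2 fold change of 0.43 ± 0.07 (adjusted p = 0.00024) is small, while the gain of 3971 CPM is large. It was followed by *MT-RNR2*, *MT-CO1*, *MT-ND4* and *CTSD*.

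Noncoding genes rose more often than they fell. Of 1118 tested lncRNA genes 33.3% rose and 11.5% fell, with a median of 0.39, while of 12423 protein-coding genes 27.3% rose and 29.2% fell, with a median of -0.01. Rises were also the more frequent call among genes of low level of all kinds, as given above. *LINC01615* had 9.75, 8.94 and 8.62 CPM with DMSO and 80.6, 73.3 and 65.4 CPM with ponatinib and a log2 fold change of 3.0 ± 0.11 (adjusted p = 4.26e-09). *LINC02615* and *DBH-AS1* rose by 2.49 and 2.23 (log2). *MANCR*, a mitosis-associated lncRNA, fell from 27.5 ± 1.07 to 3.92 ± 2.12 CPM (log2 fold change -2.78 ± 0.25, adjusted p = 3.33e-06), and *MIR137HG* and *LNCOG* fell, with log2 fold changes of -2.22 and -1.87. Whether strand was used in counting is not given in the sources used here, so reads of antisense genes such as *DBH-AS1* cannot be told from those of their partners.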

How the data were processed

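The authors aligned reads to hg38 with HISAT2 and deposited the counts of reads per gene made with HTSeq, as raw whole numbers; versions, annotation and strand setting are not given in the sources used here. Of 63677 identifiers, 52181 (81.9%, with 99.3% of the counts) were matched to GENCODE v44 for symbols and positions. Library totals were 15012884 to 17301760 counts, which together with the 3 libraries per group limits the precision of low genes. The 6 libraries of mouse 4T1 cells were not used.

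Genes were filtered with filterByExpr and tested with edgeR 4.0.16 (R 4.3.3; TMM, quasi-likelihood test, two-sided, treatment only, Benjamini-Hochberg over 14610 genes), after a test on simulated data. Alternatives were DESeq2 1.42.0, other scaling and filters, the replicate number as a block, and each library left out. Deviations from the group means were correlated across genes between libraries: 0.345, 0.111 and 0.133 for the same-numbered pairs, but also 0.163 for DMSO replicate 2 with ponatinib replicate 3, and the labels do not say what a number marks. Every same-numbered correlation was over 0.1, the limit set for a pairing, so results of the block are given for some lists, while the reported calls use no block. The block also moved counts of lists given without it. Among these were the lysosome (40 higher, 9 lower), ER chaperones (4 higher, 27 lower) and cell death genes (9 higher, 23 lower). The direction with more calls changed in 2 of 48 lists.

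The members, lists, motifs and tests were chosen with earlier results of these data known, and lists were described by counts and medians without a test. Named genes were the 15 largest changes in each direction among protein-coding genes of at least 10 CPM whose groups did not overlap, 3 per direction and list of at least 5 CPM, 5 noncoding genes per direction, the 5 largest gains and losses in CPM, and defining members of the lists. A subset of these is described, and some are not reported here. Promoter sequences were from RefSeq (GRCh38.p14), which had 10686 of the tested genes. Ratios of summed counts are given with 95% Clopper-Pearson intervals that cover counting error only.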

Additional observations from a re-analysis of the deposited data

How the results depend on the processing

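The numbers of higher and lower genes were within 1.5 times of 3975 and 3918 in all alternatives run. They were 3503 and 3747 with DESeq2, 4641 and 3097 when libraries were scaled by total counts, 4802 and 4873 with the replicate block, and 3466 to 3981 and 3414 to 3973 with each library left out in turn. Total counts raised the median log2 fold change over all genes from 0.02 to 0.11. Genes higher by more than 2-fold numbered 1566, but 1042 where at least 10 counts in every library were required, a filter that removes genes low with DMSO. With replicate 1 of both groups left out, an alternative chosen after seeing the data, 1599 genes were higher and 803 lower by more than 2-fold.

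The replicate block changed the call of 0 of the 282 named genes. Of these genes, 12 lost their call in at least 1 alternative (*CHEK2*, *GATA3*, *HILPDA*, *MT-CO1*, *NDUFB10*, *NDUFB7*, *NDUFS7*, *NEK2*, *PPARG*, *RPL27*, *RPL6* and *UQCR11*), and 0 changed direction while called. The cause was not tested. The median log2 fold change of a list changed sign only where it was within 0.1 of 0, as it was in 14 of 48 lists. Depth limits genes of a few counts most. With DESeq2, run without the filter on low counts, the medians of lists moved by up to 0.49. That largest shift was in the blood and vessel cell markers, from 0.91 over 3 members to 0.42 over 10, so the members differed. With edgeR and no filter on low counts the median over 10 members was 0.43.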

Other observations

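Some genes were nearly silent in one group. They passed the filter on low counts through the other group, so they had to differ, and they were chosen after their values were seen. Of 34 such genes, with at most 3 counts over the 3 libraries of a group, 31 were higher and 3 lower with ponatinib. *SYT8*, a synaptotagmin, had 1 count with DMSO and 172 counts with ponatinib, and *CD70*, a ligand of the TNF family, had 1 and 112 counts. The ratios of their scaled counts were 160 (95% interval 28.4 to 6370) and 104 (18.4 to 4160). *RAB17*, a small GTPase of epithelial trafficking, had 3 and 238 counts (ratio 73.9, 25 to 361), and *METTL7A*, a methyltransferase of lipid droplets, had 3 and 244 counts (ratio 75.8, 25.6 to 370). *TNNC1*, troponin C of slow muscle, had 3 and 179 counts (ratio 55.6, 18.7 to 272).

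Several genes were at 0 in all libraries of a group. *SOST*, the Wnt and BMP antagonist sclerostin, had 0 counts with DMSO and 66 with ponatinib, which is at least 20.5-fold higher when set against 3 counts over the group. *C16orf89* had 0 and 107 counts, at least 33.2-fold higher, and *PAMR1* 0 and 80 counts, at least 24.8-fold higher. In the other direction, *SPRY4-AS1*, antisense to *SPRY4*, had 79 counts with DMSO and 0 with ponatinib, at least 28.3-fold lower. Its reads cannot be told from those of *SPRY4* where both overlap, as the strand setting is not given in the sources used here. *KCTD4* had 69 and 2 counts (ratio of DMSO to ponatinib 37, 95% interval 9.87 to 312).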
